A study of Mus musculus with 2 samples.

Results

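Inhibitory neurons that carry the transcription factor genes Gata2, Gata3, Tal1 or Sox14 were examined among nuclei sequenced singly from the brains of mouse fetuses. To be a member, a nucleus had to pass filters of 500 or more detected genes and no more than 5% mitochondrially encoded UMIs. It also needed at least 2 UMIs summed over the 4 factor genes, at least 1 UMI of Gad1, Gad2 or Slc32a1, and at most 5 UMIs over the haemoglobin genes Hba-a1, Hba-a2, Hbb-bs and Hbb-bt. A UMI is a molecular tag that lets PCR copies of a captured RNA be counted once. The rule gave 245 members among 13366 nuclei that passed the gene and mitochondrial filters, out of 20574 deposited barcodes. The library labelled wildtype (WT-labelled) held 105 members of 6686 filtered nuclei, and the library labelled Cav1 knockout (KO-labelled) held 140 of 6680. Since measured counts chose the members, the levels of the 11 rule genes are given below as a description only.

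The series compared a wildtype sample with a sample in which Cav1, the gene of the caveolar coat protein caveolin 1, was knocked out, with 1 library of each genotype. Both are labelled whole brain of fetal age and no treatment is given. The day of gestation, the strain, the design of the Cav1 allele and the number of fetuses behind each library are not given in the sources used here. With 1 library per genotype a difference between the libraries has no replicate check, so no p-value is given, and genotype and library cannot be told apart. All intervals below are 95% intervals that cover counting error only.

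As background, Gata2, Gata3 and Tal1 encode DNA-binding proteins that select the GABA transmitter fate over the glutamate fate in newborn neurons of the midbrain and of parts of the diencephalon, hindbrain and spinal cord. Sox14 marks inhibitory neurons that arise at the border of midbrain and diencephalon. In blood, Gata2, Tal1 and partners of the same families direct the red cell and mast cell lineages, and the rule limits haemoglobin UMIs. GABA neurons of the ventral forebrain use another program, built on the Dlx homeobox genes.

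General neuron markers were found in most members but did not set them apart. At least 3 UMIs summed over 6 general neuron genes were present in 98 of 105 WT-labelled and 133 of 140 KO-labelled members. Of all filtered nuclei, which were shallower, 5380 of 6686 and 5425 of 6680 had as many. Per 1000000 UMIs these genes stood at 2482 and 2387 in the members and at 2628 and 2580 in all filtered nuclei. Markers of other cells were also detected. At least 1 UMI of a 14-gene erythroid list, the limited haemoglobin genes included, was present in 97 of 105 and 123 of 140 members, and of an 8-gene radial glia list in 86 and 119. Slc4a1, Epor and Rhag of the erythroid list were at 0 in both libraries, while Alas2, a haem synthesis gene, stood at 43.0 and 45.8 CPM (UMIs per 1000000), against 43.8 and 43.1 CPM in other GABA nuclei. Other GABA nuclei are filtered nuclei with a GABA gene UMI, no factor UMI and few haemoglobin UMIs. Of 6 microglia genes, Csf1r, Aif1 and C1qa were at 0 in both, and Cx3cr1 stood at 31.7 and 36.3 CPM against 31.2 and 28.2. Kit, of the mast cell and blood progenitor list, stood at 61.1 and 81.0 CPM against 40.6 and 50.5, while Cpa3 and Ms4a2 of that list were at 0. Cortical excitatory markers were found in 76 and 91 members. The part of such RNA in the results was not tested. Endothelial genes gave 46 UMIs in the WT-labelled members, 37 of them in 1 nucleus, and 159 in the KO-labelled members, where 8 nuclei held 3 or more. Their level was 104 and 170 CPM in members against 65.8 and 61.5 in other GABA nuclei. The radial glia list was lower in members, at 541 and 486 against 814 and 750 CPM. So were the cortical excitatory markers, at 530 and 560 against 1175 and 867 CPM. Of the 20574 barcodes, 43 occurred in both libraries, and none of these was a member in both.

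A rule on raw counts is met more easily by deep nuclei, and the members were deep. They had a median of 3292 UMIs in the WT-labelled and 4056 in the KO-labelled library, against 2133.5 and 2366 over all filtered nuclei. A group of very deep members, over 3 times the median of the filtered nuclei of their library, counted 13 in the WT-labelled and 29 in the KO-labelled library. These few nuclei held 30.3% of the WT-labelled and 58.0% of the KO-labelled member UMIs. The deepest member of the KO-labelled library alone had 67765 UMIs, 7.23% of its members' total, and the deepest of the WT-labelled library had 16927, or 3.83%.

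The very deep members also carried RNA of excitatory neurons. Slc17a6, the vesicular glutamate transporter of subcortical excitatory neurons, was detected in 18 of the 29 very deep KO-labelled members (62.1%) and in 4 of the other 111 (3.60%). In the WT-labelled library it was detected in 6 of 13 very deep and 4 of 92 other members. A deep nucleus shows more genes of every kind, so levels per UMI were compared too. Slc17a6 stood at 140 CPM in the very deep and 10.2 in the other KO-labelled members, and at 105 and 16.2 in the WT-labelled library. Endothelial genes stood at 257 and 48.3 CPM, and at 291 and 22.7, with 37 WT-labelled UMIs in 1 nucleus. Radial glia genes went the other way, at 415 and 584 CPM and at 471 and 572. Otx1 or Otx2 did so as well, at 51.5 and 236 and at 209 and 315. Whether some very deep members are joined nuclei was not settled. Of the 8% of nuclei with the highest doublet scores per library, 10 and 8 were members, after the automatic threshold of the doublet caller marked none. The main comparisons below are therefore given also without nuclei over that depth.

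**Figure D1:**
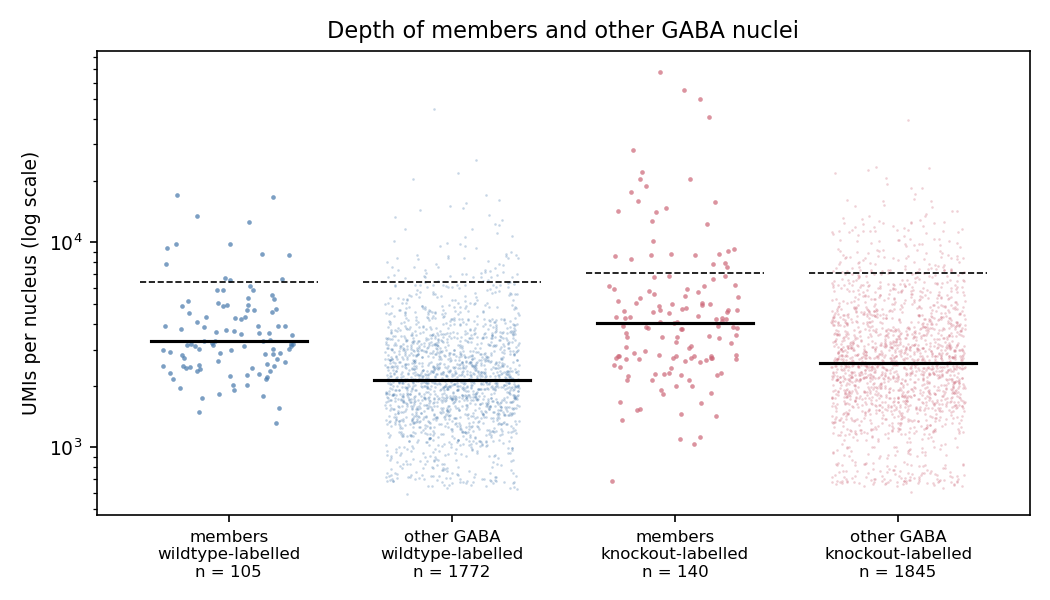
UMIs per nucleus on a log axis for members and for other GABA nuclei of each library. Points are nuclei, solid lines medians, and dashed lines mark 3 times the median of the filtered nuclei; members lie above other GABA nuclei in median, and 29 KO-labelled and 13 WT-labelled members lie over the dashed line.

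The targeted gene did not separate the libraries. Cav1 had 71 UMIs over the filtered WT-labelled nuclei (4.13 CPM; interval 3.22 to 5.21) and 80 over the KO-labelled nuclei (4.02 CPM, 3.19 to 5.01). Within the members it had 2 and 1 UMIs. A 3′ tag outside a deleted stretch would not show the deletion, and which stretch the allele removes is not given in the sources used here, so this count is no check of the genotype. The libraries are called by their labels for that reason.

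Gata3 was the factor detected most often in the members. At least 1 Gata3 UMI was present in 79 of 105 WT-labelled members (75.2%) and 107 of 140 KO-labelled members (76.4%). Tal1 was detected in 49 (46.7%) and 54 (38.6%) members. Sox14 followed with 36 (34.3%) and 59 (42.1%). Gata2, which acts earlier than the others in newborn neurons, was the rarest, with 10 (9.52%) and 22 (15.7%). Gata3 was thus the most and Gata2 the least often detected in both libraries, and the order of Tal1 and Sox14 differed between them; these shares describe genes that chose the members.

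Many members rested on very few factor molecules. Exactly 2 factor UMIs, the lowest number the rule admits, were present in 57 of the 105 and 74 of the 140 members. Exactly 1 of the 4 genes was detected in 42 WT-labelled and 48 KO-labelled members, and exactly 2 in 58 and 82. Gata3 alone was found in 31 and 34 members, Gata3 with Tal1 in 28 and 27, and Gata3 with Sox14 in 14 and 28. Tal1 with Sox14 and without a GATA gene was found in 9 and 13. At this depth the lack of a second factor in a nucleus says little, since each gene is seen through 1 or a few molecules.

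Of the GABA genes, Gad2 was found in 83.8% of WT-labelled and 87.1% of KO-labelled members, Gad1 in 63.8% and 63.6%, and the vesicular transporter gene Slc32a1 in 21.9% and 30.0%. Gad1 and Gad2 encode the enzymes that make GABA from glutamate. With each nucleus thinned to 1000 UMIs, Gad2 was found in 43.8% and 43.2% of members and in 50.1% and 43.1% of other GABA nuclei. Thinning draws the same number of UMIs from each nucleus, so that detection can be compared between nuclei of unequal depth.

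**Figure D2:**
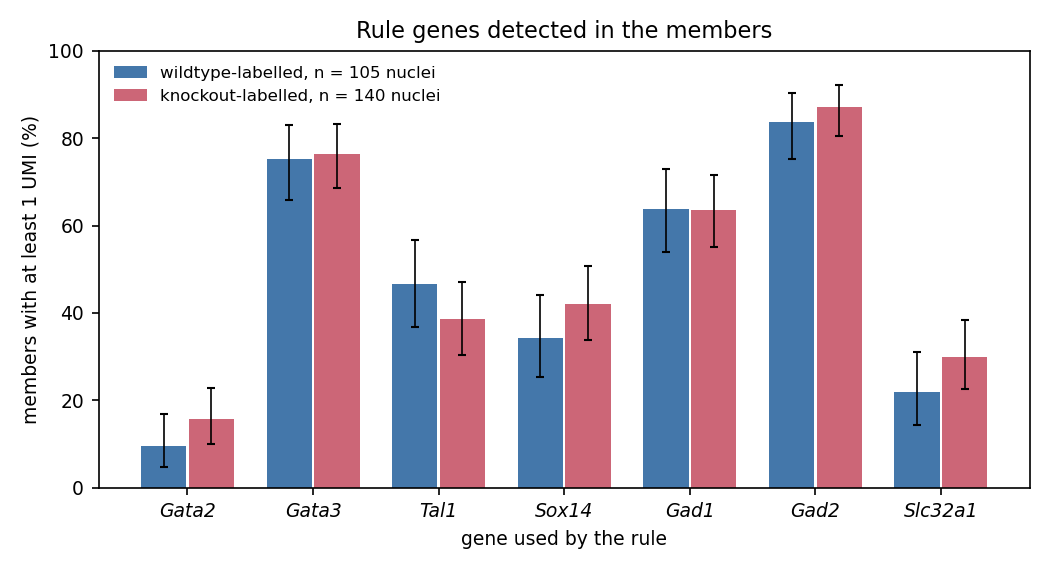
Percent of members with at least 1 UMI of each factor and GABA gene used by the rule, by library. Bars are shares of 105 and 140 nuclei and whiskers are exact binomial intervals; Gata3 and Gad2 are the most often detected of their groups in both libraries.

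Promoter sequence was taken from RefSeq on build GRCm38.p6 for 3 of the factor genes and for 2 transcription factor genes, Pax7 and Otx2, that stood higher in the members than in other GABA nuclei. Each window runs from 250 bases before to 50 bases after an annotated start and is written 5′ to 3′ on the gene's strand. Capitals mark the letters GATAA, a core bound by GATA proteins, and CAGATG, an E-box of the kind bound by Tal1 with its partners, on either strand, so that TTATC and CATCTG are the same motifs read on the other strand. They are shown because the rule turns on GATA and Tal1 genes, whose own products bind these letters. For Tal1 the start with most matches is shown, and for Otx2 the start with most GATAA matches.
Tal1, start 1 of 2, chr4:115056176-115056475, plus strand: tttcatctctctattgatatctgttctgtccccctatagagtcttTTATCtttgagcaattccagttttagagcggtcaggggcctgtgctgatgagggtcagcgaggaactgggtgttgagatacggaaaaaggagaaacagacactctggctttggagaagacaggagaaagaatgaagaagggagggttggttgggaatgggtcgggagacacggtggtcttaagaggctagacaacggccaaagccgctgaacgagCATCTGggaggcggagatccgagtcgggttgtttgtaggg
Gata3, chr2:9878551-9878850, minus strand: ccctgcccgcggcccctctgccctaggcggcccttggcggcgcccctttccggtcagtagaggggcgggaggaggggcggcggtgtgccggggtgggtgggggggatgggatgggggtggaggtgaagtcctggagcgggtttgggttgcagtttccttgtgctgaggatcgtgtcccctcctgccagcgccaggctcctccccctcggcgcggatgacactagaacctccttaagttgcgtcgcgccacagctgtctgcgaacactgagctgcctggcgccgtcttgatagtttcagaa
Sox14, chr9:99876121-99876420, minus strand: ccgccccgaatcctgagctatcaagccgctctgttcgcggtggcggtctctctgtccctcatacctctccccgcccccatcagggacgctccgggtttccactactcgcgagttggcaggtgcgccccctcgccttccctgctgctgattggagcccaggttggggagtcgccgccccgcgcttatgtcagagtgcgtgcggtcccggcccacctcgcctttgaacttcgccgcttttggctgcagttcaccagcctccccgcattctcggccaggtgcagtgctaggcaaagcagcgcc
Pax7, chr4:139832919-139833218, minus strand: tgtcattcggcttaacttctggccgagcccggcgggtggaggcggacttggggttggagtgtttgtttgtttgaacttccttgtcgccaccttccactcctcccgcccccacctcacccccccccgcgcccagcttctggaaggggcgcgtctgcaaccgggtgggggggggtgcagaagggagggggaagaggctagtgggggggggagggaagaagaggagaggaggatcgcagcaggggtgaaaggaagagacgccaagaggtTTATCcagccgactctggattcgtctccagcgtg
Otx2, start 3 of 4, chr14:48665060-48665359, minus strand: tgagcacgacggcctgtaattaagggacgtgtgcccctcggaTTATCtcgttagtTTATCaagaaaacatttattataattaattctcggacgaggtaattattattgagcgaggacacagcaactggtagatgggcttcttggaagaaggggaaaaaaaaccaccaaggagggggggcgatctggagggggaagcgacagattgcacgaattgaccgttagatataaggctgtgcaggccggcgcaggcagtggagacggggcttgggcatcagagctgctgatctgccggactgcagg

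The Tal1 window held 1 match to each motif, the Pax7 window 1 GATAA and the Otx2 window 2. Neither motif was found in the Gata3 or Sox14 windows, in either of the 2 Gata2 windows or at the other Tal1 start. Of the other Otx2 starts, start 2 had neither motif, start 1 had 1 GATAA, and start 4 had 1 of each. Pax7 and Otx2 do not stand for all leading transcription factor genes described below. In windows not printed, Tfap2b and Pax5 had neither motif, Uncx had 2 GATAA and Irx2 had 1 CAGATG. A match is common: 28.4% of all genes in the table had GATAA in at least 1 window and 19.2% had CAGATG. Among genes higher in the members than in other GABA nuclei, 25 of 39 were matched to the table, of which 6 (24.0%) had GATAA and 4 (16.0%) had CAGATG. Over the genes tested, 18.4% and 13.1% had them. These matches are a description of the letters and not of binding.

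Summed over the members, several genes that the rule did not use stood apart from other GABA nuclei of the same library. The members held more RNA of the GATA cofactor gene Zfpm2, of the midbrain and anterior brain genes Otx2, Pax7, Pax3 and Tfap2b, and of the LIM homeobox genes Lhx1 and Lhx5. They held less RNA of the forebrain transcript Dlx6os1, of Erbb4 and of Ebf1. These differences were seen in both libraries and, except for Pax3 in the KO-labelled library, were at least 2-fold without the very deep nuclei.

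To count such genes, RNA was summed over nuclei in each library and a gene was called when it was at least 2-fold apart, with an interval of the ratio that left out no change, in both libraries and in the same direction. Genes with at least 50 member UMIs over both libraries were compared, 5539 in all, and intervals were not adjusted for their number. By this size rule 39 genes (0.704%) were higher in the members and 9 (0.162%) were lower. Without nuclei over the depth limit, 28 of the 39 still had enough UMIs to be compared and 26 of these were called. All 39 kept their direction in both libraries. Of the 9 lower genes, 4 were still compared and all 4 were called.

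Zfpm2, a zinc finger protein that binds GATA factors and modifies their activity, was the most abundant transcription regulator among the 20 leading genes. Over its 40518278 to 40970261 span on chromosome 15 of GRCm39 it had 697 UMIs in the WT-labelled members (1578 CPM, 1463 to 1700) against 365 CPM in other GABA nuclei. In the KO-labelled members it had 1197 UMIs (1276 CPM, 1205 to 1351) against 384 CPM. The log2 ratios were 2.11 (1.98 to 2.24) and 1.73 (1.63 to 1.83), and 2.41 and 2.52 without the very deep nuclei. Detection was wide as well: 84 of 105 and 114 of 140 members had a Zfpm2 UMI. The related cofactor gene Zfpm1 had 1 and 5 UMIs.

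Zfpm2 was also high just outside the threshold. GABA nuclei with exactly 1 factor UMI, just outside the threshold, had 1510 CPM in the WT-labelled library (179 nuclei) and 1123 in the KO-labelled library (159 nuclei). Nuclei with exactly 2 factor UMIs, just inside, had 1499 and 1331, and those with 3 or more had 1671 and 1231. Otx2 stood at 172 and 71.1 CPM with 1 factor UMI and at 232 and 179 with exactly 2. With 3 or more it stood at 260 CPM in the WT-labelled and only 62.3 CPM (42.6 to 88.0) in the KO-labelled library. Dlx6os1 was at 604 and 481 CPM with no factor UMI, at 168 and 180 CPM with 1, and at 16.8 and 101 CPM with exactly 2.

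Lhx1 and Lhx5, LIM homeobox genes of many developing interneurons, were both higher in the members. Lhx1 had 61 UMIs in 36 WT-labelled members and 120 UMIs in 58 KO-labelled members, or 138 against 36.3 CPM and 128 against 60.0 CPM in other GABA nuclei. Lhx5 had 35 and 61 UMIs, or 79.3 against 12.2 CPM and 65.0 against 20.8 CPM. Without the very deep nuclei the log2 ratios were 2.22 and 1.74 for Lhx1 and 3.17 and 2.46 for Lhx5. The lncRNAs Lhx1os and Gm27199 overlap Lhx1 and Lhx5 on the opposite strand and were also among the 20 leading genes. Whether counting used the strand is not given in the sources used here, so reads of such pairs cannot be told apart.

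Among 42 genes listed as partners and neighbours of the factors, 15 had enough UMIs to be compared. Of these, 3 were higher in the members (Zfpm2, Lhx1 and Lhx5), 1 was lower (Ebf1) and 11 were not called. The median log2 ratio of the 15 was -0.07 in the WT-labelled and -0.04 in the KO-labelled library, against -0.04 and 0.00 over all genes compared. Lmo1, a LIM-only protein of the family that bridges Tal1 and GATA proteins, had ratios of 1.53 and 0.69, and 1.68 and 1.47 without the very deep nuclei, where it met the size rule. Its relative Lmo3 had -0.56 and -0.09. The related factor gene Tal2 had 5 and 9 UMIs only, at log2 ratios of 2.03 and 2.09. Genes of progenitors that give rise to GABA neurons were at or near 0: Foxn4, Ptf1a, Nkx6-1 and Heyl had no UMI in either library's members, and Helt had 2 in the WT-labelled members.

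Otx2, a homeobox gene of midbrain and forebrain, had 108 UMIs in 46 WT-labelled members and 108 UMIs in 50 KO-labelled members. This was 245 CPM (201 to 295) against 38.3 in other GABA nuclei, and 115 CPM (94.5 to 139) against 30.8. The log2 ratios of 2.68 and 1.90 became 2.89 and 2.90 without the very deep nuclei. Otx2os1, a lncRNA that overlaps Otx2 on the opposite strand, had 286 and 463 UMIs, with log2 ratios of 2.34 and 2.23. Gm534 and Gm49156, which lie opposite Otx2os1, were also among the 20 leading genes.

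Pax7, a paired-box gene of dorsal midbrain and pretectum, had 68 UMIs in 31 WT-labelled members and 87 UMIs in 34 KO-labelled members. Its levels were 154 against 17.7 CPM and 92.8 against 15.8 CPM, log2 ratios of 3.12 (2.63 to 3.60) and 2.55 (2.12 to 2.98). Tfap2b, an AP-2 factor of midbrain neurons, stood at 430 against 60.7 CPM and 231 against 64.1 CPM. Pax3, the close relative of Pax7, had ratios of 1.82 and 1.19, and without the very deep nuclei 2.47 and 0.74. Of the 10 midbrain and anterior brain genes listed, 6 were compared and these 4 were higher, with a median log2 ratio over the 6 of 2.25 and 1.52. Meis2, also on that list but abundant in forebrain GABA neurons too, was lower without reaching the size rule in both libraries, at -1.39 and -0.51. Without the very deep nuclei it was at -1.82 and -1.12 and met the size rule as lower.

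Other transcription factor genes among the 20 leading genes were Pax5, a paired-box gene of the midbrain-hindbrain border (log2 ratios 2.63 and 1.92), the homeobox gene Uncx (2.74 and 1.81) and Irx2 (2.15 and 1.78). Pax5 rested on few nuclei, 8 and 16, with up to 17 UMIs in 1 of them. Epha10, an ephrin receptor gene, had 64 and 105 UMIs at ratios of 2.76 and 1.96, and Asic4, an acid-sensing channel family gene, had 41 and 55 at 3.18 and 2.01. Dscam, a cell adhesion gene, was found in 100 and 133 members, with 1628 against 449 CPM and 1235 against 489 CPM. Gm47757, a lncRNA on chromosome 9 at 99730026 to 99741392, came first in the ranking of higher genes, with ratios of 3.61 and 3.67. It lies beside the rule gene Sox14 (99756159 to 99758223), and both overlap Gm16004 on the opposite strand, so its level is not read as independent of the rule.

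**Figure D3:**
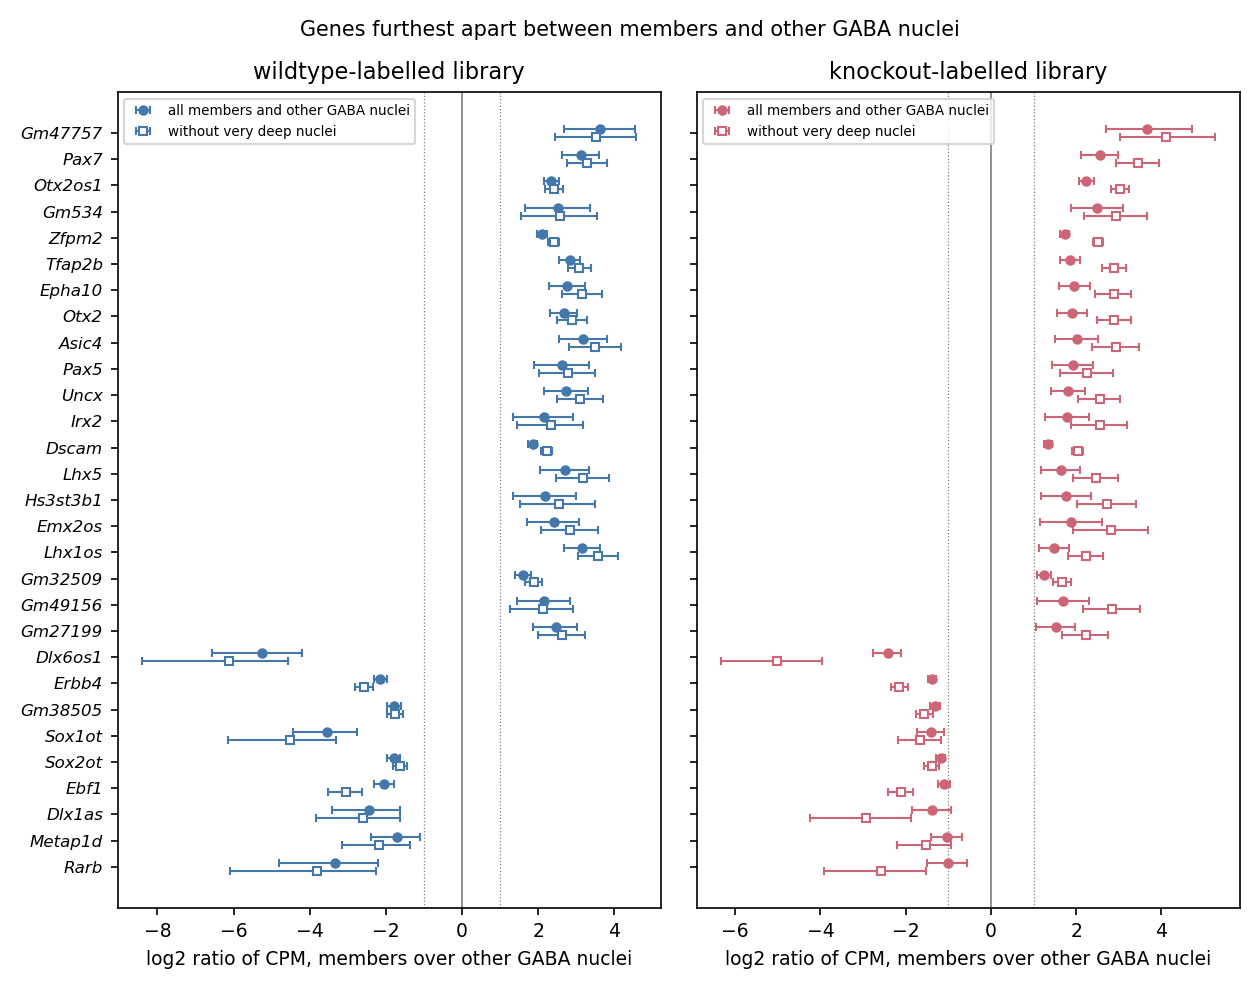
Log2 ratio of CPM, members over other GABA nuclei, for the 20 highest and 9 lower genes in each library. Filled circles use all nuclei, open squares leave out nuclei over 3 times the median UMIs, whiskers are counting intervals, lines mark no difference and 2-fold; every gene keeps its side in both libraries.

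The remaining 19 of the 39 higher genes ranked lower, and those given here were picked after their values were seen. Tenm3, a teneurin cell adhesion gene, was abundant, with 2609 against 792 CPM in the WT-labelled and 1366 against 674 CPM in the KO-labelled library. Its log2 ratios of 1.72 and 1.02 became 2.13 and 1.66 without the very deep nuclei. Lef1, a transcription factor gene of the Wnt pathway, had 109 UMIs in 41 members and 122 in 39, at ratios of 1.78 and 1.18. Grik4, a kainate receptor subunit gene, was found in 37 and 66 members at 1.45 and 1.08. Chrm2, a muscarinic acetylcholine receptor gene, stood at 1.58 and 1.18. The serotonin receptor gene Htr2c met the size rule too, but 71 of its 84 UMIs in the WT-labelled members lay in 1 nucleus.

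Of the 9 lower genes, 1 was on the forebrain list. This gene, Dlx6os1, a lncRNA at the Dlx5 and Dlx6 locus, had 7 UMIs in 4 WT-labelled members and 84 UMIs in 21 KO-labelled members, 21 of them in 1 nucleus. Its levels were 15.9 against 604 CPM and 89.6 against 481 CPM, log2 ratios of -5.25 and -2.42. Without the very deep nuclei 3 and 7 UMIs remained, and the ratios were -6.13 and -5.02. Erbb4, the neuregulin receptor of migrating forebrain interneurons, stood at 659 against 2917 CPM and 868 against 2260 CPM. Ebf1, a helix-loop-helix factor of striatal and other neurons, had ratios of -2.04 and -1.10. The other lower genes were Gm38505, Sox1ot, Sox2ot, Dlx1as, Metap1d and Rarb, of which Gm38505 overlaps Sox2ot and Dlx1as overlaps Metap1d on opposite strands.

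Set against GABA nuclei with at least 2 UMIs of Dlx1, Dlx2, Dlx5 or Dlx6 (226 and 231 nuclei), 175 genes (3.16%) were higher and 40 (0.722%) lower in the members. Zfpm2 was at 196 and 278 CPM in the Dlx nuclei, log2 ratios of 3.01 and 2.20, and Pax7 was at 4.38 and 2.48 CPM, ratios of 5.13 and 5.22. Ebf1 was not called against these nuclei, at -0.43 and 0.20. The Dlx nuclei were chosen on forebrain genes, so their forebrain levels are not a result.

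Detection at equal depth was compared for single genes. Among nuclei thinned to 1000 UMIs, Zfpm2 was found in 61.9% (51.9 to 71.2) of 105 WT-labelled and 59.0% (50.3 to 67.3) of 139 KO-labelled members, 1 member being too shallow. Other GABA nuclei had 15.5% and 18.3%, and the Dlx nuclei 7.21% and 10.5%. Tfap2b was found in 22.9% and 18.7% of members against 4.29% and 3.76% of other GABA nuclei, and Otx2 in 20.0% and 12.9% against 3.19% and 2.47%. Pax7 was found in 13.3% and 10.1% against 1.66% and 1.53%. For these 4 genes the intervals of members and other GABA nuclei did not overlap in either library, while those of the members of both libraries overlapped each other. Lhx1 and Lhx5 were likewise apart, at 15.2% and 14.4% against 2.82% and 4.99%, and at 9.52% and 10.8% against 1.04% and 1.65%. Pnoc, a peptide gene described next, was not apart in the KO-labelled library, at 2.88% (0.790 to 7.20) against 1.94% (1.34 to 2.71).

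**Figure D4:**
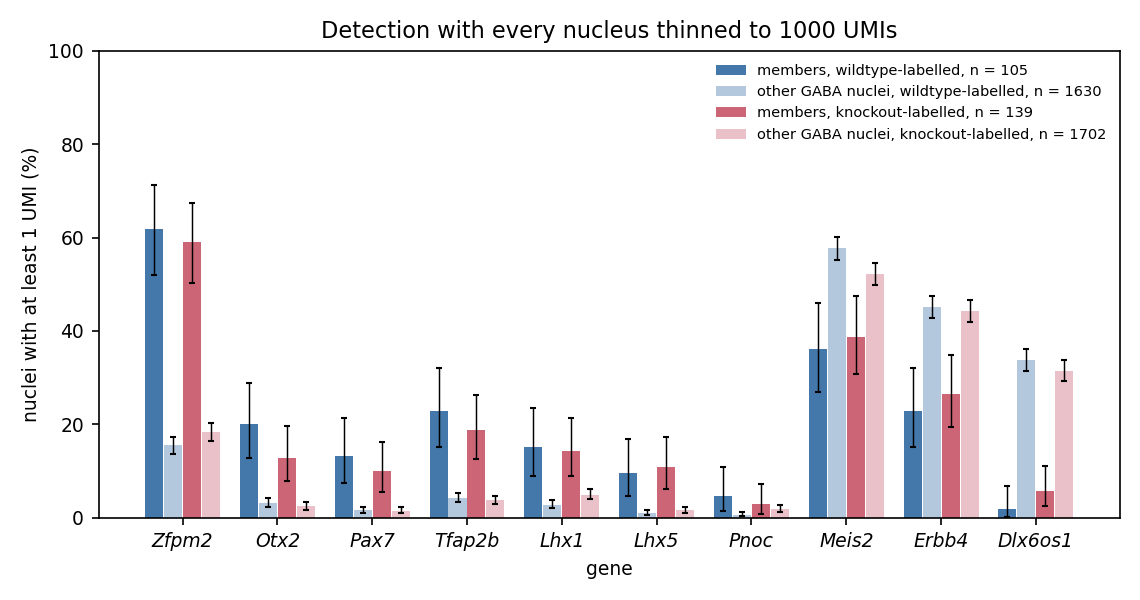
Percent of nuclei with at least 1 UMI after each nucleus was thinned to 1000 UMIs, for 10 genes in members and other GABA nuclei of each library. Bars are shares and whiskers exact binomial intervals; Zfpm2, Otx2, Pax7 and Tfap2b are found more often in members, Meis2, Erbb4 and Dlx6os1 less often.

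Transmitter, receptor and maturation genes differed little. None of the 4 GABA and glycine machinery genes compared was called, with medians of -0.15 and -0.31. Slc12a5, the chloride exporter that makes GABA inhibitory in mature neurons, had ratios of 0.62 and 0.35. Slc6a5, the glycine transporter of glycine neurons, had 4 and 15 UMIs in 3 and 7 members. None of 10 GABA-A and glycine receptor subunit genes compared was called (medians 0.27 and 0.16), nor any of 12 maturation genes (0.14 and 0.03) or 21 axon guidance genes (-0.21 and 0.01). Among these, Gabrb2 had ratios of 0.81 and 0.61. Epha5 had -1.16 and -0.17, and Plxna2, a semaphorin receptor gene, -1.35 and -0.75.

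Pnoc, the gene of the opioid-like peptide nociceptin, was the neuropeptide gene called. It had 17 UMIs in 16 WT-labelled members and 40 UMIs in 30 KO-labelled members, at most 2 in a nucleus. Its levels were 38.5 against 12.0 CPM and 42.6 against 16.3 CPM, and the ratios 1.69 and 1.39 became 1.80 and 1.90 without the very deep nuclei. Thinned to 1000 UMIs, it was found in 4.76% and 2.88% of members against 0.675% and 1.94% of other GABA nuclei, with overlapping intervals in the KO-labelled library. Sst, the other of 18 peptide and calcium-binding protein genes compared, had -0.23 and -0.38. Npy, below the UMI minimum with 17 and 26 UMIs, had 0.67 and 0.30. Pvalb, Vip and Crh had no UMI in the members.

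Region genes divided the members. Otx1 or Otx2 was detected in 57 of 105 WT-labelled members (54.3%) and 58 of 140 KO-labelled members (41.4%), against 8.35% and 8.46% of other GABA nuclei. A Hox gene, a mark of the hindbrain and spinal cord, was detected in none of 105 WT-labelled members, which allows a share of up to 3.45%, and in 11 of 140 KO-labelled members (7.86%). In other GABA nuclei Hox genes were found in 0.226% and 5.37%, and the gap between libraries was thus seen outside the members too. Of the 11 Hox-positive KO-labelled members, 4 also had an Otx UMI. En1 or En2, genes of the midbrain-hindbrain border, were found in 6.67% and 15.0% of members against 0.903% and 4.61% of other GABA nuclei. These shares are not corrected for the greater depth of the members. With nuclei thinned to equal depth, En1 or En2 was found in 2.86% and 3.60% of members against 0.368% and 1.76%. The intervals overlapped in both libraries. Hox genes were then found in 2.16% of KO-labelled members against 1.70%, again with overlapping intervals. Otx1 or Otx2 stayed apart, at 21.0% and 12.9% against 4.11% and 3.11%. How much hindbrain each sample contained is not given in the sources used here.

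Tcf7l2, a factor gene of thalamus and pretectum, was found in 35.2% and 35.0% of members. Its levels there were 442 and 286 CPM, against 215 and 197 in other GABA nuclei. Without the very deep nuclei the log2 ratios were 1.37 and 0.20 (-0.15 to 0.54). With at least 3 factor UMIs the WT-labelled ratio was -0.50, and thinned detection was 21.9% and 12.2% against 10.6% in other GABA nuclei of each library. Neither an Otx nor a Hox UMI was found in 48 and 75 members, whose region these genes leave unassigned.

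Members with and without a Sox14 UMI are described side by side. Sox14 is a rule gene, so members without it had to hold other factors, and the split is no independent comparison. Sox14 was detected in 36 WT-labelled and 59 KO-labelled members, with median depths of 3710 and 3822 UMIs, against 3167 and 4073 in members without it. Otx2 was found in 24 of 36 (66.7%) Sox14-positive and 22 of 69 (31.9%) Sox14-negative WT-labelled members, and in 31 of 59 (52.5%) and 19 of 81 (23.5%) KO-labelled members. Six3, a homeobox gene of the rostral brain, went the other way, with 1 of 36 and 11 of 69 in the WT-labelled library and 2 of 59 and 13 of 81 in the KO-labelled library. Its antisense neighbour Six3os1 was among the genes called lower.

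By the same size rule, 6 genes (0.108%) were higher in Sox14-positive members of both libraries and 4 (0.0722%) were lower. Col25a1, a transmembrane collagen gene, was higher, with log2 ratios of 1.09 and 1.12, and 1.63 and 1.20 without the very deep members. Nos1ap, which encodes a partner of neuronal nitric oxide synthase, had 1.35 and 1.18, and 1.36 and 2.05 without the very deep members. Kctd16, an auxiliary subunit gene of GABA-B receptors, was lower at -1.94 and -1.68, and at -3.48 and -2.30 without them. The others higher were Pde1a, Carmil1, Gm47757 and Hs3st3b1, and the others lower were 4930555F03Rik, Gm16226 and Six3os1. Without the very deep members, Pde1a was left with 2 UMIs in Sox14-positive and 1 in Sox14-negative WT-labelled members, and with 5 and 0 in KO-labelled members, and Carmil1 had 1.83 and 0.61 (-0.14 to 1.36). Hs3st3b1 had 1.16 (-0.58 to 2.90) and 1.54, Gm16226 had -0.89 (-2.32 to 0.33) and -1.14 (-2.51 to 0.07), and Six3os1 had -2.97 and -1.20 (-2.68 to 0.09). Gm47757, at 1.90 and 2.29, and 4930555F03Rik, at -1.55 and -1.68, kept intervals that left out no change. Gm47757 lies beside Sox14, the gene of the split, so its level is not read as independent of the split. Gata3 itself was found in 18 of 36 and 36 of 59 Sox14-positive members against 61 of 69 and 71 of 81 Sox14-negative ones. The rule forces that gap, since a nucleus without Sox14 must hold other factors.

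The members made up 1.57% (1.29 to 1.90) of filtered WT-labelled nuclei and 2.10% (1.77 to 2.47) of KO-labelled nuclei, a difference of 0.53 points (0.07 to 0.99). That order depended on depth. When every nucleus was thinned to 1000 UMIs before the rule, the shares were 0.223% and 0.323%, a difference of 0.10 points (-0.10 to 0.31). When nuclei were thinned to 2000 UMIs they were 1.38% and 1.15%, a difference of -0.24 points (-0.75 to 0.27). No order of the libraries by this share is therefore read here.

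Between the libraries, most of the genes that marked the members stood within 2-fold of each other. By the same size rule, 64 genes (1.16%) were higher in the KO-labelled members and 22 (0.397%) were lower. These calls rested largely on the very deep members. Without them, 14 of the 64 still had enough UMIs and 6 of these were called. Of the 22 lower genes, 7 were still compared and 3 called. Over the 2993 genes that then had enough UMIs, 27 (0.902%) were higher and 17 (0.568%) lower. In direction alone, 61 of the 64 and all 22 had a finite ratio on the same side. The 61 leave out Gm15581, a lncRNA gene described below, which had 0 WT-labelled and 50 KO-labelled UMIs left and so no finite ratio.

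For several genes the ratio depended on the very deep nuclei. Otx2 had a log2 ratio of KO-labelled over WT-labelled members of -1.09 (-1.49 to -0.69), and -0.36 (-0.80 to 0.09) without the very deep members. Dlx6os1 had 2.50 (1.39 to 3.86), and 0.87 (-1.26 to 3.45) without them. Hs3st4, a heparan sulfate sulfotransferase gene, had 1.52, and 0.31 (-0.24 to 0.88). Zfpm2 had -0.31 (-0.44 to -0.17), and 0.09 (-0.07 to 0.24), and Pax7 had -0.73 and -0.14. Tcf7l2 went from -0.63 to -1.21 (-1.63 to -0.80), but was at 1.18 among members with at least 3 factor UMIs.

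Other differences were as large without the very deep members. Il1rapl2, a synaptic adhesion gene of the X chromosome, had 22 UMIs in 8 WT-labelled members and 215 UMIs in 32 KO-labelled members. Its log2 ratio was 2.20 (1.57 to 2.91), and 2.77 (1.87 to 3.82) without the very deep members, against 0.71 in other GABA nuclei. Pdzrn4, an adaptor protein gene, had 1.59 and then 2.62 (1.62 to 3.81), and Chrm3, a muscarinic acetylcholine receptor gene, had 1.34 and then 1.55 (0.89 to 2.27). Rnf220, a ubiquitin ligase gene, had 17 and 161 UMIs, at 2.16 and then 2.19 (0.92 to 3.73). In other GABA nuclei Pdzrn4, Chrm3 and Rnf220 had 0.24, 0.43 and -0.53. The difference between members and other GABA nuclei in these ratios was not tested.

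In the lower direction, Thsd4, a gene of an extracellular matrix protein, had 112 UMIs in 37 WT-labelled and 80 UMIs in 36 KO-labelled members. Its ratio was -1.57, and -1.24 (-1.79 to -0.71) without the very deep members, against -0.21 in other GABA nuclei. Neto1, an auxiliary subunit gene of kainate receptors, had 37 and 26 UMIs, at -1.60 and then -2.06 (-3.41 to -0.87). Tnc and 8030451A03Rik, which overlap on opposite strands, had -1.50 and -1.85. Rnf121 had -1.29 in the members and -1.67 in other GABA nuclei, so its difference was seen across GABA nuclei.

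The Cav1 locus itself showed the largest ratio. Gm15581, a lncRNA that overlaps Cav1 and Cav2 on the opposite strand, had 1 UMI in the members of the WT-labelled library and 99 UMIs in 55 KO-labelled members, a log2 ratio of 5.54 (3.03 to 10.86). Cav2, the gene of caveolin 2, had no UMI in the WT-labelled members and 43 UMIs in 28 KO-labelled members, at least 6.75-fold higher when set against a floor of 3 counts over the group. Both were also higher in other KO-labelled GABA nuclei, Cav2 at 37.9 against 0.641 CPM and Gm15581 at 92.8 against 1.92 CPM. With strand use in counting unknown, reads of Cav2 and Gm15581 cannot be told apart. Of the other caveolar genes, Cavin4 had 8 and 26 UMIs, and Cav3 had none.

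**Figure D5:**
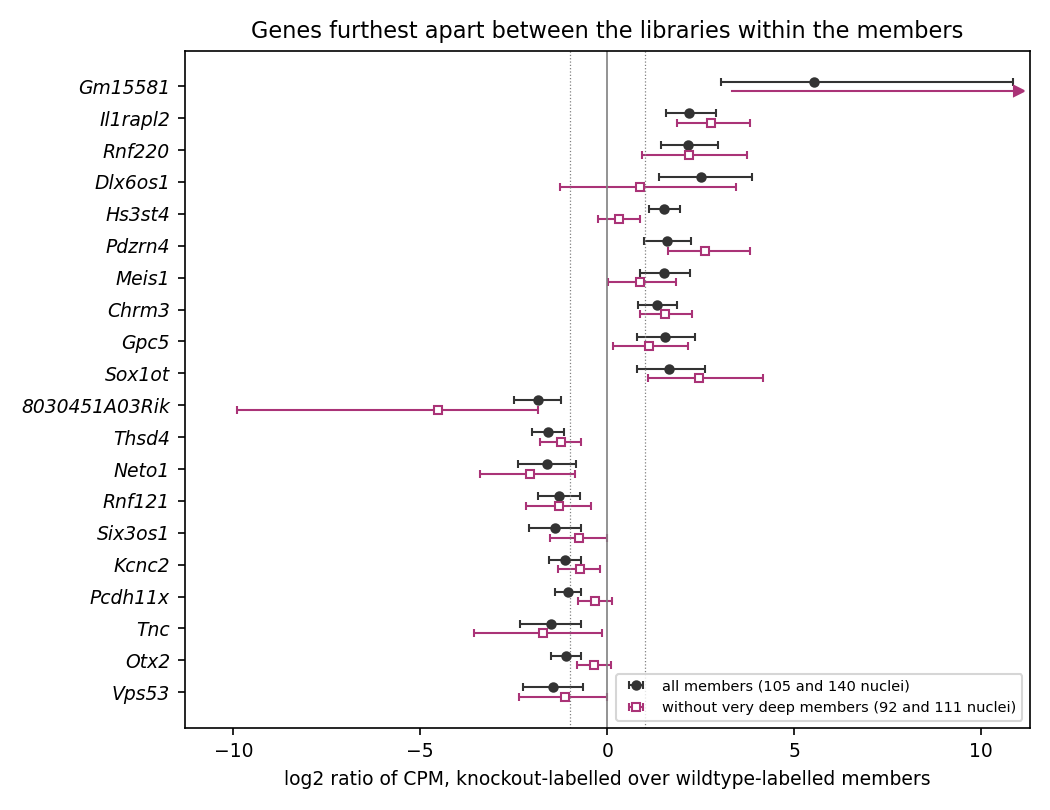
Log2 ratio of CPM, KO-labelled over WT-labelled members, for the 10 genes furthest apart in each direction. Filled circles use all members, open squares leave out members over 3 times the median UMIs, whiskers are counting intervals and the arrow marks a gene with no WT-labelled UMI left; Il1rapl2, Pdzrn4 and Chrm3 keep their distance while Dlx6os1, Hs3st4 and Otx2 move to intervals that reach no difference.

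Of the listed genes, few were called between the libraries. Dlx6os1 of the forebrain list, Tfap2d of the midbrain list (1.04), Gabrg3 of the receptor subunits (1.13), Slit1 of the guidance genes (1.00) and Gm15581 were higher in the KO-labelled members, and Otx2 was lower. None of the 15 factor partners, the 4 GABA machinery genes or the 12 maturation genes compared was called, with medians of -0.11, -0.20 and -0.05, against 0.00 over all genes compared. Without the very deep members Gabrg3 stood at 0.93 and Slit1 at 0.81, while Tfap2d had 2 and 5 UMIs left.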

How the data were processed

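Nuclei of 1 WT-labelled and 1 KO-labelled library were analysed. The authors deposited filtered UMI counts per gene and barcode, not normalized, and per the file headers the software was Cell Ranger 6.1.1. The submitters' processing notes name Cell Ranger 3.0.1, STAR and build GRCm39. Use of strand and of intron reads in counting is not given in the sources used here. Barcodes held at least 500 UMIs, and library totals were 19048835 and 22504908 UMIs. Of 55416 features, 98.8% were matched to GENCODE M39 for coordinates and overlaps.

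The members, gene lists and named-gene rule were chosen with earlier results of these data known. UMIs were summed per library and group and given as UMIs per 1000000 with exact Poisson intervals. Ratios had exact conditional binomial intervals, shares Clopper-Pearson intervals, and differences of shares Newcombe intervals, all at 95%. Nuclei are not replicates, so no test was made. Named were genes of the lists with enough UMIs, the 20 highest and 10 lowest against other GABA nuclei, 10 per direction between libraries and 8 per direction by Sox14, ranked by the interval bound nearest 0 among called genes, without rule, mitochondrial, Xist, Tsix and Y-linked genes; fewer are named where fewer were called. Bnc2 was chosen after its values were seen. Doublets were scored with Scrublet in scanpy 1.11.5 and kept. Python 3.11.15, numpy 2.4.6, scipy 1.17.1 and pandas 2.3.3 were used, and the calculation of the intervals was checked on simulated data. The simulated counts were Poisson draws from the summed members, without UMIs gathered in single nuclei. They therefore say nothing on calls that rest on few nuclei. Alternatives were other cut-offs of the rule, gene minimum, comparator, thinning and doublet removal; those that left out very deep nuclei, other cells' markers or Hox-positive members, and thinning of the members, were chosen after seeing the data. Some genes of the lists are not reported here.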

Additional observations from a re-analysis of the deposited data

Results flagged for a closer look

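Bnc2, which encodes a zinc finger protein, stood on opposite sides of other GABA nuclei in the libraries. In the WT-labelled members it had 11 UMIs in 3 nuclei and a log2 ratio to other GABA nuclei of -1.08 (-2.10 to -0.22). In the KO-labelled members it had 70 UMIs in 15 nuclei, at most 13 in 1 nucleus, and a ratio of 1.01 (0.60 to 1.40). The difference between these ratios was not tested, and the counting intervals do not cover variation between animals. Without nuclei over 3 times the median UMIs, 1 and 3 UMIs remained, at ratios of -3.75 and -2.14, both below 0.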

How the results depend on the processing

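No paired analysis was possible because each genotype has 1 library. Of 980 values for 82 ratios of members to other GABA nuclei under the alternatives, 926 kept their side of the size rule, 14 dropped below it, 37 rose past it and 3 reversed. A change of sign counted as reversed only where the ratio met the size rule in the main run or under the alternative. Ratios that met it in neither counted as kept whatever their sign, such as Zfpm2 between libraries (-0.31, and 0.09 without the very deep members). Of 396 values for 31 ratios between libraries, 329 were kept, 52 dropped below, 13 rose past it and 2 reversed. Reversed were Ebf1 in the KO-labelled library (0.20) and St18 in the WT-labelled library (-0.18) against Dlx nuclei, Tcf7l2 with at least 3 factor UMIs (-0.50 against other GABA nuclei, WT-labelled; 1.18 between libraries), Vps53 between libraries with members thinned to 1000 UMIs (0.18), and the difference in member share, -0.24 points with all nuclei thinned to 2000 UMIs.

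The number of genes compared differed between alternatives, so shares of it are given. A count under an alternative need not hold the genes of the main run. Higher than in other GABA nuclei were 39 genes (0.704%) in the main run and 25 (0.803%) with at least 3 factor UMIs. They were 67 (0.709%) and 23 (0.778%) with gene minimums of 20 and 100 UMIs. Without nuclei over 3 times the median UMIs they were 71 (2.37%), and against Dlx nuclei 175 (3.16%). Lower were 9 genes (0.162%) in the main run, and 24 (0.254%) and 5 (0.169%) with those minimums. Without the very deep nuclei they were 20 (0.668%), and without members with a forebrain gene 19 (0.620%). Without members with 3 or more UMIs of other cells' markers they were 14 (0.357%), and against Dlx nuclei 40 (0.722%). Between libraries, 64 genes (1.16%) were higher in the main run, and 158 (1.67%) and 19 (0.643%) with those minimums. Without members with other cells' markers they were 36 (0.918%), of which 16 were among the 64. Without the very deep nuclei they were 27 (0.902%), of which 6 were among the 64. With members thinned they were 7 (0.795% of 881 genes), none of them among the 64. Lower between libraries were 22 genes (0.397%) in the main run, and 123 (1.30%) and 5 (0.169%) with the minimums. With members thinned they were 5 (0.568%), of which 1 was among the 22. Where more or fewer genes or UMIs enter, a change in the count follows from the alternative's construction. Otherwise the cause was not tested.

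Thinned to 1000 UMIs, WT-labelled and KO-labelled members had Gata2 in 1.90% and 7.91%, Gata3 in 34.3% and 36.0%, Tal1 in 18.1% and 10.8% and Sox14 in 13.3% and 14.4%. A UMI of the forebrain list was then found in 13.3% and 12.2%, of the diencephalon list in 23.8% and 17.3%, of the midbrain list in 65.7% and 61.9% (other GABA nuclei 63.9% and 58.6%), and of the hindbrain list in 1.90% and 2.88%. With at least 3 factor UMIs the diencephalon list was found in 27.1% of WT-labelled members. With 1 library per genotype no replicate could be left out, and genes with few UMIs in 105 and 140 nuclei have wide intervals.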
